A study of Mus musculus with 12 samples.

Results

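Sca-high cells in which miR-34a had been induced (Sca-high 34a) were compared with Sca-high cells that carried the same vector but were left uninduced (Sca-high NT), over every gene of the deposited table. The comparison took 6 of the 12 libraries of the series, 3 a group, and all 6 came from cells infected with pSliK34a, a lentiviral vector that expresses miR-34a when doxycycline is added. The Sca-high 34a cells had received doxycycline for 24 h and the Sca-high NT cells none. Both groups are populations of CommaDβ, a non-tumour epithelial line of the mouse mammary gland, and were sorted by flow cytometry for stem cell antigen-1, the product of *Ly6a*, which marks the basal-like, progenitor-like cells of that line. The other 6 libraries came from uninfected Sca-high and uninfected Sca-low cells, and the latter are the luminal-like population. Vector-free cells under doxycycline were not analysed here, so effects of the drug and of the miRNA cannot be told apart. Whether the 3 libraries of a group go back to separate cultures is not stated, and the p-values then measure only their spread, which may be technical. Of 21853 listed genes, 21671 had a symbol and 10586 were tested, those that reached 1 RPKM (reads scaled for the length of the gene and the size of the library) in 3 or more of the 12. Levels are given as RPKM after rescaling of the libraries, and differences as log2 fold changes of Sca-high 34a over Sca-high NT, on the scale of log2(scaled RPKM + 0.1), which understates the change of low genes. A gene is said to have risen or fallen where the p of limma, adjusted by Benjamini-Hochberg over all tested genes, was below 0.01 and the log2 fold change was over 0.5 in size.

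miR-34a is a microRNA, a short RNA that guides Argonaute proteins to messenger RNAs and lowers their stability and translation. The mRNAs are recognised mainly through the seed, bases 2 to 8 of the mature strand, which pairs with matching letters in 3′ UTRs. Its gene is a transcriptional target of p53, and the miRNA is best known for holding back proliferation by acting on cyclins, cyclin-dependent kinases and growth factor receptors. The same seed is shared by other members of the miR-34 and miR-449 family, among them miR-34b, miR-34c, miR-449a and miR-449c. The mature strands of 4 members are shown, from RefSeq on GRCm38.p6, because every seed match counted below is a match to this shared stretch. They are written 5′ to 3′ with the seed in capitals. The mature miR-34a lies on the plus strand at chr4:150068473-150068494, miR-34b at chr9:51103610-51103632 on the minus strand, and miR-449c and miR-449a on the plus strand at chr13:113036008-113036028 and chr13:113037549-113037570.
mmu-miR-34a-5p: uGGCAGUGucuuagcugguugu
mmu-miR-34b-5p: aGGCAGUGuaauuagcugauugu
mmu-miR-449c-5p: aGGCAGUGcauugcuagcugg
mmu-miR-449a-5p: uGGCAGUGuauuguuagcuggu
Reads at *Mir34a* numbered 3, 8 and 4 in the Sca-high NT libraries and 744, 632 and 1137 in the Sca-high 34a libraries, while *Mir34b*, *Mir449a* and *Mir449c* held 0 to 3 reads in each of the 6. Of these 4 genes, *Mir34a* alone had more than 3 reads in any Sca-high 34a library. These are reads from libraries of long RNA at the miRNA gene, not a measure of the mature strand.

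The depth was 39676273 to 41828930 reads in the Sca-high NT libraries and 37992721 to 39953195 in the Sca-high 34a libraries. These reads were recovered from the RPKM steps and the authors' mean of normalized reads. Among the labels, the genotype tag has the induced and uninduced groups the other way round from the titles. The groups here follow the titles, and *Mir34a* runs with them. The columns of the table number the libraries from 7 to 9 (Sca-high NT) and 10 to 12 (Sca-high 34a), and these numbers are used as names. Library 12 stood apart within its group, with a chi-square per gene of 60.2 and 118 against libraries 10 and 11, which differed from each other by 15.2. The 3 Sca-high NT libraries differed by 9.26 to 21.3, and 1 would be sampling noise alone. Over the 1690 genes called with more than a 2-fold change, the change of library 12 was a median of 96.9% of the mean change of libraries 10 and 11, 88.4% for genes that rose and 101% for genes that fell. Markers of other cell types were low throughout. The summed level of 7 endothelial markers was 0.134 to 0.192 RPKM in Sca-high NT and 0.115 to 0.176 in Sca-high 34a cells, with *Pecam1* and *Cdh5* under 0.1 in all 6 libraries. The sum of 10 immune markers was 7.74 to 7.79 against 3.48 to 4.19, and *Ptprc*, *Itgam* and *Csf1r* were under 0.1 in all 6. It was led by *Cd14*, at 5.90, 6.03 and 6.07 against 2.61, 2.73 and 2.25, and the part of these values in the results was not tested. The sum of 8 fibroblast markers was 2.13 to 2.73 against 0.524 to 0.612 and was led by *Dcn*, while *Col1a1*, *Col3a1* and *Lum* were under 0.1. Adipocyte markers summed to 0.319 to 0.525 against 0.0976 to 0.202, and erythroid markers to 0.259 to 0.391 against 0.170 to 0.422. In these bulk libraries, fewer cells of a type and less RNA per cell cannot be told apart.

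The genes chosen to mark the response moved in opposite directions, *Mir34a* and *Cdkn1a* up and the proliferation genes down. *Mir34a* was at 0.367, 0.913 and 0.477 RPKM in Sca-high NT and at 90.3, 77.3 and 128 in Sca-high 34a cells, with no overlap (log2 fold change 7.22, SE 0.672, adjusted p = 2.01e-06 by limma). *Mki67*, which codes for the Ki-67 antigen of cycling cells, stood at 43.9, 40.7 and 43.2 in the uninduced and 2.55, 2.32 and 2.78 in the induced libraries. *Mcm5*, a subunit of the replicative helicase, was at 42.1, 41.2 and 42.4 against 1.58, 1.45 and 1.44. Both fell in every induced library to levels that varied little, with log2 fold changes of −4.01 (SE 0.0812) and −4.72 (SE 0.083). *Cdkn1a*, the gene of the CDK inhibitor p21, was at 9.41, 7.76 and 6.92 against 24.1, 20.2 and 44.2. It rose (log2 fold change 1.79, SE 0.279, adjusted p = 0.000144 by limma), with library 12 far above the other 2 induced libraries. In uninfected cells *Cdkn1a* averaged 2.76 (Sca-high) and 1.90 (Sca-low), under every library of the infected groups. *Ly6a*, which codes for the antigen used for sorting, was at 10.9, 12.98 and 13.3 in Sca-high NT and 9.14, 9.22 and 6.32 in Sca-high 34a cells. The groups did not overlap, but the gene was not called (log2 fold change −0.60, SE 0.218, adjusted p = 0.0300 by limma), and Sca-low cells were at 1.31 ± 0.492 (SD, n = 3).

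**Figure D1:**
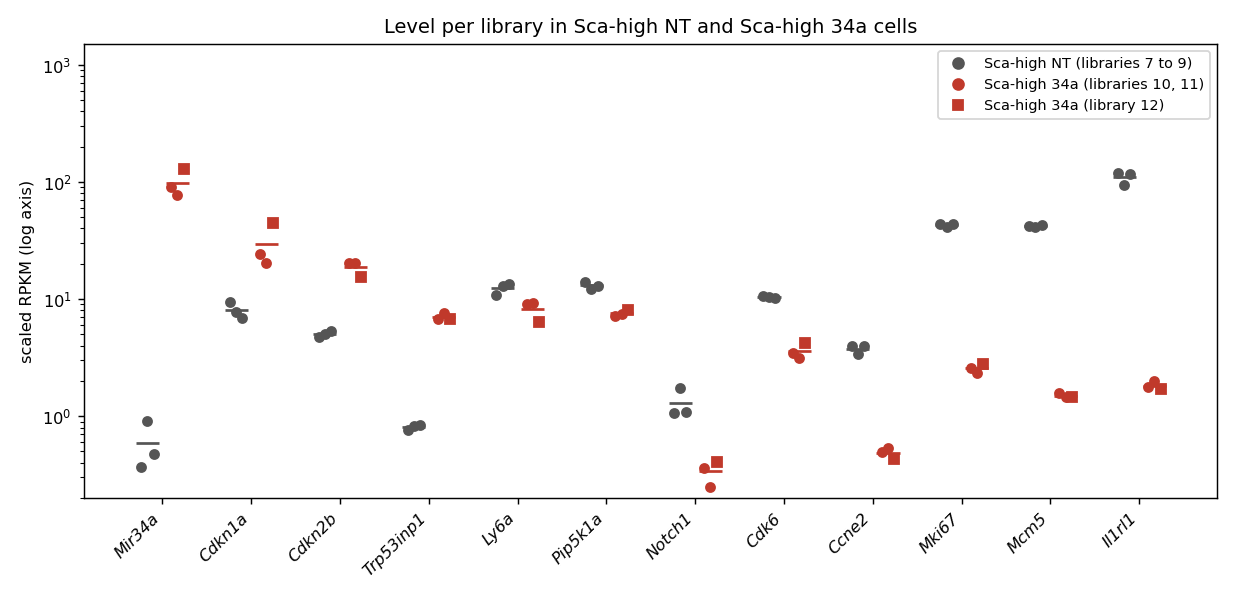
Level of 12 genes in each library of Sca-high NT (grey) and Sca-high 34a cells (red), as scaled RPKM on a log axis, with a line at each group mean and library 12 drawn as a square. The proliferation genes *Mki67* and *Mcm5* sit close together within each group and far apart between groups, while *Cdkn1a* and *Mir34a* are highest in library 12.

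In total 4150 of the 10586 tested genes were called, 39.2%, of which 2064 rose (19.5% of those tested) and 2086 fell (19.7%). All Sca-high 34a libraries lay above all Sca-high NT libraries for 34.8% of the tested genes and below them for 33.4%. Rises and falls were alike in number but not in size. A change of more than 2-fold was called for 669 rises and 1021 falls, of more than 4-fold for 104 rises and 396 falls, and of more than 8-fold for 29 rises and 208 falls. Of the 208 largest falls, 72 were members of the 6 lists of cell cycle genes described below. The counts of any list have to be read against the shares of 19.5% and 19.7%, since close to 2 in 5 genes were called. For several lists the share called, rises and falls together, was below the 39.2% of all tested genes. These were the Wnt, Notch, mesenchymal and TGF-β, luminal, and integrin and laminin lists. The same held for sterol and fatty acid synthesis, chaperones of the endoplasmic reticulum, clock genes, miRNA genes, miRNA machinery, and cytosolic and mitochondrial ribosomal proteins.

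Among the 12 largest rises at 5 RPKM or more were enzymes and secreted or cytoskeletal proteins. *Twf2*, an actin-binding twinfilin, was at 2.87, 2.53 and 2.48 RPKM in Sca-high NT and 46.1, 49.3 and 36.4 in Sca-high 34a cells (log2 fold change 4.01, SE 0.131). *Gstt1*, a glutathione transferase, rose from 0.218 ± 0.0162 to 5.67 ± 0.915 (SD, n = 3). *Angptl4*, a secreted inhibitor of lipoprotein lipase, rose from 7.27 ± 0.152 to 67.8 ± 7.82, and *Lgals9*, which codes for galectin-9, from 1.26 ± 0.0199 to 14.8 ± 1.06. The adaptor *Stap2* went from 1.53 ± 0.135 to 17.4 ± 0.395, the aldehyde dehydrogenase *Aldh3b1* from 1.01 ± 0.202 to 9.87 ± 0.0973, and *Fam132a*, which codes for the secreted protein adipolin, from 2.29 ± 0.307 to 24.9 ± 5.21. Each of these 7 was low in uninfected Sca-high cells too, at most 7.74 RPKM for *Fam132a*. Among the 12 largest falls was *Prl8a9*, a gene of the prolactin family, at 109, 78.2 and 108 RPKM in Sca-high NT and 0.849, 0.882 and 0.786 in Sca-high 34a cells (log2 fold change −6.70, SE 0.227). *Tubb3*, a tubulin best known from neurons, was at 36.4, 29.4 and 32.7 against 1.38, 1.21 and 0.932, and *Sprr2h*, of the family of cornified envelope proteins, at 18.5, 11.9 and 12.3 against 0.398, 0.301 and 0.507. The largest rises and falls were picked among genes without overlap between the groups, so the lack of overlap of these 3 genes follows from the choice. At the other end, 5 genes at 10 RPKM or more had a fold change closest to 0, among them *E2f4*, a repressor-type E2F, at 17.4 ± 0.778 against 17.4 ± 0.292, and *Aen*, a nuclease gene that p53 activates, at 18.3 ± 0.347 against 18.3 ± 1.18. *Golim4*, *Myg1* and *Naa20* were the others.

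A 3′ UTR was available for 10214 of the tested genes, as the longest one in GENCODE M21 on GRCm38, and the letters that pair with the miR-34a seed were counted in it. The 8-mer is CACTGCCA, the 7-mers are CACTGCC and ACTGCCA, and the 6-mer is ACTGCC, searched on the strand of the gene, with each gene placed in the class of its best site. Over all these genes 19.9% rose, 19.6% fell and the median log2 fold change was 0.02. Of 620 genes with an 8-mer, 85 rose and 182 fell (29.4%), with a median of −0.21. The 1138 genes whose best site was the 7-mer to bases 2 to 8 had 162 rises and 286 falls (median −0.10), and the 627 with the other 7-mer had 98 and 128 (−0.08). The 1140 genes with a 6-mer had 208 rises and 209 falls (0.01), and the 6689 genes without a site had 1483 and 1198 (0.08). The order of the medians thus ran from the 8-mer through the 7-mers to genes with no site, and the distance between its ends was 0.28 on the log2 scale, small beside the changes of the genes named above. With the number of sites of 7 or 8 bases the share of falls was 22.8% for 1 site, 31.0% for 2 and 36.0% for the 139 genes with 3 or more, of which 50 fell and 9 rose. The 8-mer genes were lower at each UTR length. With UTRs of up to 716 bases the 61 genes with an 8-mer had a median of −0.49 and 49.2% fell, against −0.28 at up to 1858 bases and −0.14 above that. Genes without a site of 7 or 8 bases had medians of 0.07, 0.04 and 0.09 in these 3 ranges. These are descriptions, since genes are not replicates.

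**Figure D2:**
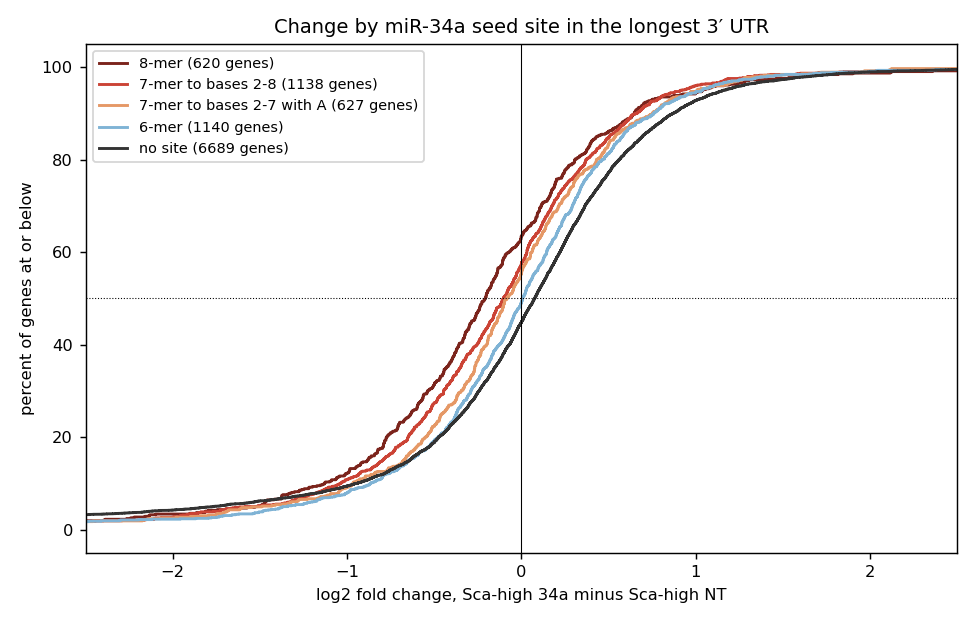
Cumulative share of genes (percent at or below each value) against the log2 fold change of Sca-high 34a over Sca-high NT cells, one line per class of best miR-34a seed site in the longest 3′ UTR. Through the middle of the range the line of the 620 genes with an 8-mer runs left of the line of the 6689 genes with no site, which crosses it among the largest falls, with medians of −0.21 and 0.08, and the 7-mer classes lie between them.

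Among the cell cycle genes, falls were no more common with a seed match than without. In the 6 cell cycle lists 33 tested genes had a site of 7 or 8 bases, of which 27 fell (81.8%, median −2.40), and 151 had none, of which 134 fell (88.7%, median −2.71). Without these lists the 8-mer genes had a median of −0.20 and the genes with no site 0.09. The 8-mers of 7 genes among the 8 largest falls at 5 RPKM or more in Sca-high NT cells are printed with the bases before them, and those of the 4 such genes with the largest rises for contrast. Every line is the transcribed strand, 5′ to 3′, on GRCm38, with the seed match in capitals. The falls are *Gjb2* (a connexin, minus strand, chr14:57099070-57099077), *Mcm5* (chr8:75127613-75127620), *Rpa2* (a subunit of the single-stranded DNA binding protein, chr4:132778165-132778172), *Hr* (a nuclear receptor corepressor, chr14:70573045-70573052), *Ndc1* (a nucleoporin, chr4:107415853-107415860) and *Tfrc* (the transferrin receptor, chr16:32631084-32631091), all but the first on the plus strand, and *Gmnn* (geminin, the inhibitor of CDT1, minus strand, chr13:24752050-24752057).
Gjb2: catgggtttgcttgggaatttCACTGCCAt
Mcm5: tatattggctcccgggccactCACTGCCAa
Rpa2: tggtcggaattgaaagaggaaCACTGCCAa
Hr: agtggcagagacctcaaatacCACTGCCAg
Ndc1: tctgcctgctggggagcaggaCACTGCCAt
Tfrc: ttgtcagacttgaaaagaacaCACTGCCAa
Gmnn: ggtgtgggacgCACTGCCAg
Their log2 fold changes ran from −6.69 for *Gjb2* to −2.40 for *Gmnn*. *Tfrc* was at 92.5, 82.7 and 98.8 RPKM in Sca-high NT and 13.3, 14.98 and 12.2 in Sca-high 34a cells, and *Rpa2* at 12.97, 12.2 and 13.8 against 1.504, 1.42 and 1.22. *Gmnn* fell from 10.8 ± 0.601 to 1.97 ± 0.242 (SD, n = 3). The site of *Gmnn* began at base 12 of its 3′ UTR and that of *Ndc1* at base 1764.

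An 8-mer was present in genes that rose as well. These were *Gpr56* (an adhesion receptor, plus strand, chr8:95013195-95013202) and, on the minus strand, *Mxd4* (a MAX partner that opposes MYC, chr5:34175630-34175637), *Cib2* (a calcium-binding protein, chr9:54545452-54545459) and *Clock* (a transcription factor of the circadian clock, chr5:76216323-76216330). The site of *Cib2* began at base 4 behind the stop codon, which leaves few bases before it.
Gpr56: tcctcaaagggctcagaagcaCACTGCCAt
Mxd4: tgttccttgtctcaccccaccCACTGCCAc
Cib2: agaCACTGCCAa
Clock: caaatattacagagggcacacCACTGCCAg
*Mxd4* was at 3.12, 3.44 and 3.36 RPKM in Sca-high NT and 15.7, 15.5 and 12.9 in Sca-high 34a cells (log2 fold change 2.12, SE 0.112). *Clock* was at 16.7, 15.6 and 16.9 against 44.6, 45.5 and 45.9 (1.46, SE 0.0628). These genes were picked for an 8-mer and a rise without overlap, so they are examples only. Of all genes with an 8-mer 13.7% rose, against 19.9% of all genes with a 3′ UTR.

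Of the genes that the study follows in these cells, *Pip5k1a* and *Notch1* had seed matches and fell. *Pip5k1a*, a kinase that makes PIP2 and takes part in Wnt signal transduction, was at 14.1, 12.3 and 12.99 RPKM in Sca-high NT and 7.14, 7.42 and 8.11 in Sca-high 34a cells (log2 fold change −0.79, SE 0.073). Its 8-mer lies on the minus strand at chr3:95059343-95059350. *Notch1*, a receptor of the Notch pathway, was at 1.06, 1.74 and 1.09 against 0.363, 0.247 and 0.406 (−1.66, SE 0.212). It has 3 of the 7-mers to bases 2 to 8, on the minus strand at chr2:26459338-26459344, chr2:26459067-26459073 and chr2:26458725-26458731, printed in that order with the 7-mer in capitals.
Pip5k1a: ggaccttagcaggaccctactCACTGCCAg
Notch1: gtacttttattttccacagaaaCACTGCCt
Notch1: agaattgcccctcccccacactCACTGCCc
Notch1: gtgtggtgcctcctagagaaaaCACTGCCt
The Wnt receptors *Fzd1* and *Fzd2* held none of the 4 letter strings in their longest annotated 3′ UTR, which says nothing of sites of another kind. *Fzd1* fell from 5.97 ± 0.646 to 4.06 ± 0.168 (SD, n = 3), a log2 fold change of −0.54, which was no longer called without library 8 (−0.46). *Fzd2* was at 2.36 ± 0.245 against 1.88 ± 0.0843 and was not called (−0.30, adjusted p = 0.0114 by limma). Among genes that have been put forward as miR-34 targets 46 were tested, of which 25 fell and 3 rose (median −0.59). Their list holds *Fzd1*, *Fzd2* and *Pip5k1a*, which the study itself picked out with these samples in view and then tested. The study reports them as direct targets, from luciferase reporters with intact and seed-mutated UTRs and from Argonaute immunoprecipitation. Those assays are not part of the data used here. On the list of reported targets, the fallers *Cdc25a*, *Cdc25c*, *Ccne2*, *Cdk4* and *Cdk6* also belong to the cell cycle lists. In those lists 161 of 184 tested genes fell. The list is not independent evidence of its direction, since it holds genes chosen with these samples in view, and 2 of its falls are those of *Fzd1* and *Pip5k1a*. It also includes *Cdk6*, a G1 kinase with an 8-mer, at 10.5, 10.3 and 10.2 against 3.46, 3.15 and 4.20, the receptor kinases *Met* (31.3 ± 0.853 to 15.2 ± 2.19) and *Axl* (98.5 ± 2.38 to 56.9 ± 2.99), and the deacetylase *Sirt1* (4.21 ± 0.138 to 1.57 ± 0.0804). *Src*, the tyrosine kinase, and *Nampt*, an enzyme of NAD synthesis, are on the same list and rose, from 35.6 ± 0.268 to 53.6 ± 3.33 and from 12.6 ± 0.652 to 31.0 ± 3.79. *Cd44*, *Myc*, *Ccnd1* and *Bcl2*, which are often cited as miR-34 targets, were not called, with log2 fold changes of 0.03, −0.43, −0.20 and 0.46. The call of *Myc* depended on library 12, since without it the gene fell (−0.60), and that of *Bcl2* on library 10 or 11, without which it rose (0.50 and 0.52).

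Genes of DNA replication fell almost without exception. Before S phase the origin recognition complex, CDC6 and CDT1 load the MCM helicase onto DNA, and CDC7 with DBF4, CDC45 and the GINS proteins then activate it. This licensing and firing step had 25 tested genes, of which 23 fell and none rose (median log2 fold change −2.53). The replicative helicase was at 54.8, 54.6 and 54.3 RPKM in Sca-high NT and 4.90, 4.53 and 4.74 in Sca-high 34a cells for its subunit *Mcm3*, and at 56.0, 57.5 and 55.4 against 9.52, 9.41 and 10.1 for *Mcm2*. *Mcm10*, which helps to start unwinding, went from 4.94 ± 0.254 to 0.359 ± 0.040, *Cdc6* from 9.81 ± 0.491 to 0.890 ± 0.0559, *Orc1* from 4.62 ± 0.246 to 0.567 ± 0.0706, and *Cdt1* from 7.68 ± 0.451 to 1.40 ± 0.0528 (SD, n = 3). The licensing inhibitor geminin, named above, fell with them. The members that were not called were the origin recognition subunits *Orc3* (0.20) and *Orc4* (0.32). At the fork itself 29 of 33 genes fell and none rose (median −2.00). The polymerase subunit *Pole* was at 7.96, 7.94 and 7.86 against 0.583, 0.519 and 0.596, and *Pold1* fell from 10.3 ± 0.174 to 1.505 ± 0.0943. The sliding clamp *Pcna* kept the highest level of the list, at 219, 201 and 233 against 65.2, 73.5 and 50.9. Enzymes that make deoxynucleotides were lower too, with *Rrm2*, of ribonucleotide reductase, at 45.4 ± 2.72 against 4.45 ± 0.961, *Tk1*, thymidine kinase, at 68.8 ± 2.86 against 7.24 ± 0.938, and *Tyms*, thymidylate synthase, at 15.3 ± 0.822 against 3.77 ± 0.475. The purine and pyrimidine enzymes *Impdh1*, *Impdh2* and *Ctps* and the polymerase subunit *Pold3* of the same list were not called, at 0.46, −0.32, 0.09 and −0.35.

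The genes that run mitosis fell further than those of replication. Of 32 tested mitotic kinases, cyclins and checkpoint genes, 31 fell, with a median log2 fold change of −3.53, and of 36 genes of the kinetochore, spindle and cytokinesis 34 fell, with a median of −3.30. No gene of either list rose. *Cdk1*, the kinase that starts mitosis, was at 36.5, 32.9 and 36.8 RPKM in Sca-high NT and 4.29, 4.13 and 3.62 in Sca-high 34a cells, and its partner *Ccnb1*, cyclin B1, at 47.8, 44.2 and 51.4 against 3.46, 3.503 and 2.68. *Cdc25c*, the phosphatase that activates CDK1, was at 6.21 ± 0.543 against 0.421 ± 0.0746 (SD, n = 3). The polo kinase *Plk1* was at 13.01 ± 0.941 against 0.889 ± 0.223, the spindle assembly factor *Tpx2* at 23.9 ± 1.06 against 1.98 ± 0.132, and the centrosome kinase *Nek2* at 10.03 ± 0.108 against 0.699 ± 0.0464. *Foxm1*, the transcription factor of many of these genes, went from 7.66, 9.23 and 6.96 to 0.562, 0.449 and 0.907. Topoisomerase *Top2a* fell from 91.2 ± 6.92 to 6.58 ± 0.478, the motor *Kif11* from 28.8 ± 1.77 to 2.01 ± 0.114, the centromeric histone *Cenpa* from 25.04 ± 0.257 to 2.13 ± 0.0773, the kinetochore gene *Ndc80* from 13.3 ± 0.371 to 1.01 ± 0.103, and *Anln*, anillin of the contractile ring, from 50.1 ± 1.44 to 4.43 ± 0.134. The checkpoint gene *Mad2l1* fell less, from 29.9 ± 0.183 to 4.01 ± 0.157. Outside the pattern were *Bub3* (−0.32), *Mis12* (−0.26) and *Zwint* (−0.09), which were not called.

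Repair genes that work at replication forks fell alongside. Of 34 tested genes of repair and the damage checkpoint, 30 fell and none rose (median −2.53). The histone variant gene *H2afx* was at 83.4, 92.7 and 88.0 RPKM in Sca-high NT and 8.30, 7.48 and 7.64 in Sca-high 34a cells. *Brca1* was at 6.26, 5.67 and 6.37 against 1.11, 0.996 and 0.983, the Fanconi gene *Fancd2* at 3.95 ± 0.207 against 0.282 ± 0.0144, and the nuclease *Exo1* at 6.49 ± 0.346 against 0.512 ± 0.0521 (SD, n = 3). The damage kinases *Atm* (−0.41) and *Atr* (−0.30), and *Trp53bp1* (0.37) and *Xrcc1* (−0.41), were the 4 members that were not called.

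**Figure D3:**
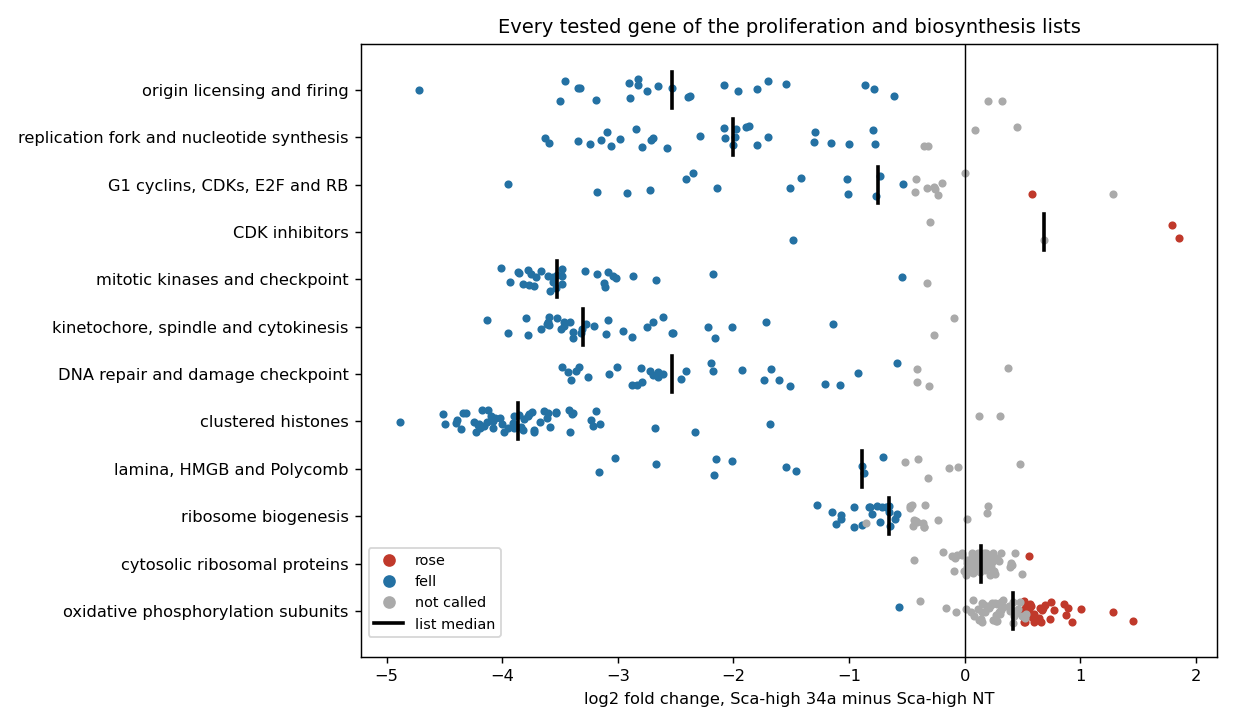
Log2 fold change of Sca-high 34a over Sca-high NT cells for each tested gene (points) of 12 lists, with genes that rose in red, genes that fell in blue, genes not called in grey and the list median as a black bar. The mitotic lists and the histones lie furthest left, with medians of −3.53, −3.30 and −3.86, the CDK inhibitors are split, and the cytosolic ribosomal proteins stay near 0.

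Upstream of the replication genes the changes were mixed. E2F factors switch on S phase genes once cyclin-dependent kinases have taken the RB proteins off them. Of 24 tested G1 cyclins, CDKs, E2F and RB genes, 14 fell and 1 rose (median −0.75), and 2 rose without library 11. Cyclin A2 (*Ccna2*) was at 39.2, 36.7 and 41.8 RPKM in Sca-high NT and 2.63, 2.48 and 2.23 in Sca-high 34a cells, and cyclin E1 (*Ccne1*), which has no seed site in its UTR, at 13.9, 14.2 and 14.2 against 2.67, 2.59 and 2.83. The phosphatase *Cdc25a* fell from 5.64 ± 0.272 to 1.20 ± 0.101 (SD, n = 3), and *E2f1* from 2.42 ± 0.259 to 1.17 ± 0.293. Cyclin D1 (*Ccnd1*) stayed high, at 43.9, 44.99 and 44.0 against 38.6, 37.5 and 39.9, and was not called. Cyclin D2 (*Ccnd2*, named after its values were seen) was at 13.6, 15.3 and 10.9 against 27.4, 20.5 and 59.1, with no overlap, but the spread of the induced libraries left it uncalled (log2 fold change 1.29, adjusted p = 0.0185 by limma). The RB family split as well. *Rbl1*, which codes for p107, fell from 9.41 ± 0.294 to 1.69 ± 0.091, *Rbl2*, which codes for p130 of quiescent cells, rose from 1.69 ± 0.0396 to 2.57 ± 0.122, and *Rb1* was at 2.37 ± 0.0826 against 1.87 ± 0.136, not called.

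In the 300 bases around annotated starts, the letters of E2F sites and of the cell cycle homology region were counted for the fork genes and the kinetochore and spindle genes. E2F sites were searched as TTTGGCG or TTTCCCG and the homology region (CHR), bound by the DREAM and MuvB complexes in mitotic genes, as TTTGAA or TTCGAA, both on either strand, in the RefSeq promoters of GRCm38.p6. A promoter was found for 29 of the 33 fork genes and 34 of the 36 kinetochore and spindle genes, and the other cell cycle lists, with a promoter for less than 80% of their tested genes, are not given. A gene counted where any of its promoters held the letters. The E2F letters were found for 41.4% of the fork genes and 17.6% of the kinetochore and spindle genes with a promoter. The shares were 5.55% of all 27025 genes with a promoter and 10% of the tested genes with one. The CHR letters were found for 13.8% and 64.7% of the genes of these lists, against 21.7% of all genes with a promoter and 16.2% of those tested. Only 79.5% of the tested genes had a match. Examples, chosen after the matches were seen, are given with the motif in capitals on the strand of the gene. They belong to the licensing and mitotic kinase lists, not to the lists counted here. *Mcm2* and *Ccne2*, looked up for E2F letters, and *Ccnb1*, looked up for CHR letters, gave no match or had no promoter. In *Mcm5* (plus strand, chr8:75109350-75109379) and *Mcm6* (minus strand, chr1:128359797-128359826) the E2F letters began 148 and 110 bases before the start. In *Cdk1* (minus strand, chr10:69352965-69352994) the CHR letters began 71 bases before it, and in *Plk1* (plus strand, chr7:122159454-122159483) 30 bases behind it.
Mcm5: aagaactttcgCGCCAAAacgtccagcctc
Mcm6: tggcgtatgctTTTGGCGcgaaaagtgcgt
Cdk1: tgattggctccTTTGAAcgtctacgtgcaa
Plk1: ccagcgccgcgTTTGAAttcggggaggagc
A match of letters is a description and not a site of binding.

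The replication-dependent histones, whose genes lie in clusters and are transcribed in S phase, fell with the largest list median. Of 57 tested genes 55 fell and none rose, at a median of −3.86. Linker histone *Hist1h1b* was at 165, 189 and 170 RPKM in Sca-high NT and 9.71, 8.23 and 10.3 in Sca-high 34a cells, *Hist1h2bh* at 107, 122 and 103 against 5.26, 4.59 and 4.58, and *Hist1h2ak* at 138, 152 and 128 against 7.66, 6.22 and 6.25. *Hist1h2af* and *Hist3h2ba* were among the 12 largest falls (−4.88 and −4.51). Copies of these genes are near identical in sequence and reads could be split between them, so values of single members are uncertain. The members not called were *Hist3h2a* and *Hist2h2aa1*, both under 1 RPKM in each group mean. Of 17 tested genes of the nuclear lamina, the HMGB proteins and Polycomb, 11 fell and none rose (median −0.89), and 1 rose when library 9 or 10 was left out. *Lmnb1*, lamin B1, was at 3.82, 4.06 and 3.44 against 0.813, 0.689 and 1.13, *Hmgb2* at 14.3, 15.4 and 12.97 against 1.52, 1.29 and 2.30, and *Hells*, a chromatin remodeller, at 38.5 ± 1.72 against 5.98 ± 0.522 (SD, n = 3). The methyltransferase *Ezh2* was at 12.8 ± 0.948 against 9.10 ± 2.37 and was not called, though without library 12 it fell (−0.71).

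Among the inhibitors of cyclin-dependent kinases, *Cdkn1a* was joined by *Cdkn2b*, the gene of p15, which was at 4.77, 5.07 and 5.31 RPKM in Sca-high NT and 20.1, 20.2 and 15.5 in Sca-high 34a cells (log2 fold change 1.85, SE 0.102, adjusted p = 1.93e-08 by limma). Of 5 tested inhibitors 2 rose and 1 fell. *Cdkn2c*, which codes for p18, went the other way, at 19.6, 21.1 and 20.9 against 7.70, 8.19 and 6.09. *Cdkn1b*, the p27 gene, was at 6.99 ± 0.593 against 5.68 ± 0.761 (SD, n = 3), and *Cdkn2a*, which codes for p16 and ARF, at 11.96 ± 1.40 against 19.6 ± 4.92, neither called, although *Cdkn2a* rose without library 11 (0.88). The p53 gene and the genes listed as its targets had no common direction. Of 28 tested, 7 rose and 7 fell, and their median of −0.04 lay between −0.08 and 0.04 over the scalings of the libraries. *Trp53inp1*, a p53 target that promotes autophagy and cell death, was at 0.768, 0.826 and 0.838 against 6.70, 7.58 and 6.74, *Rrm2b*, the p53-dependent subunit of ribonucleotide reductase, at 1.75 ± 0.126 against 4.04 ± 0.209, and *Gadd45a* at 8.85 ± 0.143 against 14.7 ± 0.717. These 3 rose. *Pmaip1*, the gene of the BH3-only protein NOXA, was at 22.6, 19.5 and 20.6 against 4.97, 4.58 and 5.62, and fell together with *Ei24* and *Ckap2* (−1.15 and −3.11). *Trp53* itself (−0.40), *Mdm2* (0.40), *Bax* (−0.38) and *Ccng1* (−0.07) were not called.

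Of 21 tested genes of the BCL2 family and the caspases, 10 rose and 2 fell (median 0.52). The risers were of both kinds, for and against apoptosis. *Bad*, a BH3-only protein that favours cell death, was at 9.52, 9.57 and 9.16 RPKM in Sca-high NT and 25.5, 26.2 and 21.1 in Sca-high 34a cells, and *Bcl2l1*, which codes for the survival protein BCL-XL, at 14.6, 13.9 and 14.4 against 24.4, 24.5 and 22.2. The apoptosis inhibitor *Birc3* rose from 0.379 ± 0.0647 to 1.68 ± 0.136 (SD, n = 3), and *Bok* fell from 19.2 ± 0.979 to 5.67 ± 1.18. Of 21 genes of quiescence and of FOXO targets 6 rose and 4 fell (median −0.23). *Sesn3*, a sestrin that restrains mTORC1, rose from 2.58 ± 0.101 to 8.83 ± 2.19 and *Pik3ip1*, an inhibitor of PI3 kinase, from 2.13 ± 0.184 to 4.92 ± 0.587. *Txnip*, which curbs glucose uptake, fell from 12.6 ± 0.0557 to 6.11 ± 0.447. It had been at 48.4 in uninfected Sca-high cells.

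The ribosome showed a split between its assembly and its parts. Of 36 tested genes of ribosome biogenesis 20 fell and none rose (median −0.65), such as *Nop56*, of the box C/D snoRNPs, at 99.1, 96.0 and 101 RPKM in Sca-high NT and 53.2, 52.4 and 46.9 in Sca-high 34a cells, *Polr1b*, a subunit of RNA polymerase I, from 10.2 ± 0.258 to 4.69 ± 0.167 (SD, n = 3), *Dkc1*, dyskerin, from 30.6 ± 0.685 to 18.1 ± 0.303, and *Rrp1b* from 4.52 ± 0.0872 to 1.81 ± 0.0828. Nucleolin (*Ncl*) showed the spread of library 12, at 22.8, 22.1 and 17.5 against 8.81, 7.08 and 23.6, and was not called, while without that library it fell (−1.37). Of 75 proteins of the cytosolic ribosome only *Rpl36* rose, at 374 ± 13.9 against 554 ± 87.8, and none fell (median 0.14). That call was lost without library 7, 9, 10 or 11, and 7 rose without library 12, whose own median was −0.13 against 0.21 and 0.33 in libraries 10 and 11. Of 75 mitochondrial ribosomal proteins 9 rose and 2 fell, but 15 rose and 1 fell without library 12, and 8 rose and 6 fell without library 11.

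Subunits of oxidative phosphorylation were higher as a group. Of 78 tested 32 rose and 1, *Ndufa5*, fell, with a median log2 fold change of 0.42, and *Ndufc1* of complex I was at 36.2, 37.1 and 38.2 RPKM in Sca-high NT and 64.8, 68.0 and 55.6 in Sca-high 34a cells. *Ndufv3* rose from 11.1 ± 0.704 to 22.5 ± 2.58 (SD, n = 3). The count was between 19 and 44 with libraries left out, 20 without library 7 or 11, 19 without library 10 and 44 without library 12, and the medians of libraries 10, 11 and 12 were 0.48, 0.62 and 0.20. Glycolytic and hypoxia genes were lower, with 15 of 32 falling and 3 rising (median −0.41). The aldolase isozymes moved in opposite directions. *Aldoa* was at 269, 288 and 263 against 65.0, 61.1 and 60.4, and the brain-type isozyme *Aldoc* at 2.67, 3.18 and 3.11 against 21.9, 24.5 and 16.7. Hexokinase 2 (*Hk2*) fell from 9.63 ± 0.771 to 2.85 ± 0.717, lactate dehydrogenase *Ldha* from 510 ± 3.33 to 234 ± 14.1, the lactate exporter *Slc16a3* from 5.10 ± 0.248 to 1.21 ± 0.0519, and the hypoxia factor *Hif1a* from 39.8 ± 2.19 to 22.2 ± 1.95. The muscle-type phosphofructokinase *Pfkm* rose from 5.12 ± 0.333 to 11.4 ± 1.48.

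Amino acid supply genes under ATF4, the transcription factor of the amino acid response, fell in 15 of 34 cases and rose in none (median −0.47), with 1 rise when library 11 or 12 was left out. The cystine carrier *Slc7a11* was at 9.14, 8.77 and 9.05 RPKM in Sca-high NT and 1.40, 1.33 and 1.45 in Sca-high 34a cells, *Mthfd2*, of mitochondrial folate metabolism, at 24.8 ± 1.75 against 8.38 ± 0.156 (SD, n = 3), the glutamine carrier *Slc1a5* at 14.1 ± 0.485 against 5.05 ± 0.127, and asparagine synthetase *Asns* at 62.6 ± 3.04 against 31.0 ± 3.10. *Atf4* fell from 125 ± 11.9 to 70.8 ± 10.8. Of 35 tested genes of sterol and fatty acid synthesis 11 fell and 2 rose (median −0.29). *Abca1*, the cholesterol exporter, rose from 0.559, 0.825 and 0.615 to 4.20, 3.69 and 5.54. Of 21 chaperone genes of the endoplasmic reticulum 7 fell, among them *Hspa5*, which codes for BiP, from 250 ± 18.03 to 165 ± 10.96. The riser of that list, *Sel1l*, was not called without library 12 (0.46).

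Genes of the lysosome rose more often than they fell. Of 57 tested genes of lysosome and autophagy 31 rose and 5 fell (median 0.53), and the median was 0.56, 0.56 and 0.57 in libraries 10, 11 and 12. *Ctso*, a cysteine cathepsin, was at 0.687, 0.633 and 0.708 RPKM in Sca-high NT and 6.33, 6.87 and 5.70 in Sca-high 34a cells, and *Hexa*, a subunit of β-hexosaminidase, at 5.05, 5.09 and 5.18 against 22.3, 23.1 and 18.4. *Glb1*, the lysosomal β-galactosidase, was at 1.70, 1.81 and 1.58 against 3.76, 3.19 and 4.02. Cathepsins did not move as one, since *Ctsl* fell from 302 ± 30.3 to 155 ± 18.1 (SD, n = 3) and *Ctsc* from 8.64 ± 0.646 to 2.503 ± 0.261, while *Ctsd* was at 301 ± 16.5 against 311 ± 52.8. The lysosomal regulator *Tfeb* was not called (0.14). Of 38 tested genes of detoxification and redox 16 rose and 7 fell (median 0.26). Beside *Gstt1*, *Mgst2*, a membrane-bound glutathione transferase, rose from 15.3 ± 0.433 to 50.05 ± 2.49, whereas the omega-class *Gsto1* was at 263, 256 and 284 against 59.6, 62.3 and 50.5. The glutathione transferases of the mu class are close in sequence, so reads may be split between them. The NRF2 gene *Nfe2l2* (0.10) and its target *Nqo1* (−0.15) were not called. The aryl hydrocarbon response gene *Cyp1b1* was at 2.24, 0.375 and 1.38 in Sca-high NT cells, with library 8 far below the others, and at 0.401, 0.284 and 0.374 in Sca-high 34a cells, so that it was called (−2.05) only without library 8.

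Genes of several secreted inflammatory proteins, growth factors and proteases fell by large factors from a level in Sca-high NT cells that lay above that of uninfected cells. Of 37 tested cytokine, chemokine and NF-kB genes 14 fell and 9 rose (median −0.17). *Il6* was at 4.89, 4.92 and 5.94 RPKM in Sca-high NT and 0.198, 0.215 and 0.116 in Sca-high 34a cells, with 0.762 ± 0.133 (SD, n = 3) in uninfected Sca-high cells. *Ptgs2*, which codes for the prostaglandin synthase COX-2, was at 444, 314 and 391 against 41.4, 42.2 and 47.1, with 78.5 ± 6.58 in uninfected cells. For both genes the induced cells were below the uninfected ones. *Il1a*, interleukin-1α, and the neutrophil chemokine *Cxcl1* fell only part of the way, to 145 ± 28.5 and 216 ± 44.8 from 560 ± 125 and 469 ± 93.9, and uninfected Sca-high cells were at 20.8 ± 5.96 and 20.98 ± 2.07. The difference between Sca-high NT and uninfected cells includes the infection and vector, and was not tested here. Rises on the same list were *Nfkbie*, an inhibitor of NF-kB, at 1.79, 2.00 and 1.81 against 13.1, 13.2 and 12.3, *Il18* (1.08 ± 0.0359 to 4.07 ± 0.868) and the adhesion molecule *Icam1* (0.367 ± 0.0612 to 1.68 ± 0.182), while *Nfkb1* (−0.15) and *Nfkbia* (0.26) were not called.

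Several ligands of the EGF receptor fell with it. Of 13 tested ligands and ERBB receptors 8 fell and none rose (median −0.80), with 1 rise when library 11 was left out. Epigen (*Epgn*) was at 98.1, 69.4 and 94.3 RPKM in Sca-high NT and 9.67, 11.6 and 7.13 in Sca-high 34a cells, epiregulin (*Ereg*) at 116, 86.3 and 109 against 19.7, 23.2 and 19.2, and *Tgfa*, TGF-α, at 7.05 ± 0.373 against 2.97 ± 0.299 (SD, n = 3). The receptor *Egfr* fell from 11.4 ± 0.446 to 6.51 ± 0.510. *Hbegf*, another ligand, was at 9.05, 6.94 and 8.11 against 8.52, 8.43 and 8.48 and was not called. Of 23 genes of ERK feedback and AP-1, 10 fell and 4 rose (median −0.16). *Jun* was at 10.6, 10.6 and 9.12 against 2.91, 2.37 and 3.20, and *Atf3* at 8.50 ± 1.10 against 1.52 ± 0.327. The phosphatase gene *Dusp2* rose, at 0.131, 0.187 and 0.188 against 4.98, 4.71 and 5.09, while *Dusp6* was at 48.4 ± 3.48 against 33.3 ± 4.24, a fall that was not called without library 12 (−0.43).

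Of 20 tested matrix proteases and their inhibitors 9 fell and 3 rose (median −0.46). *Mmp3*, stromelysin-1, was at 151, 128 and 154 RPKM in Sca-high NT and 7.96, 9.16 and 6.38 in Sca-high 34a cells, with 10.9 ± 1.46 (SD, n = 3) in uninfected Sca-high cells, and *Adamts1*, a protease of proteoglycans, at 20.6, 20.0 and 20.1 against 1.56, 1.54 and 1.79. The plasminogen activator inhibitor *Serpinb2* was at 332, 195 and 284 against 11.3, 13.2 and 9.30, with 28.1 ± 0.666 in uninfected Sca-high cells. *Mmp11* and *Mmp19* rose, from 0.537 ± 0.0425 to 1.61 ± 0.233 and from 0.211 ± 0.0139 to 1.17 ± 0.0963, and *Mmp14*, the membrane-bound collagenase, was not called, at 11.7 ± 0.796 against 12.7 ± 2.08. *Timp1*, the protease inhibitor, remained at 215 ± 8.85 against 186 ± 37.8 and was not called.

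**Figure D4:**
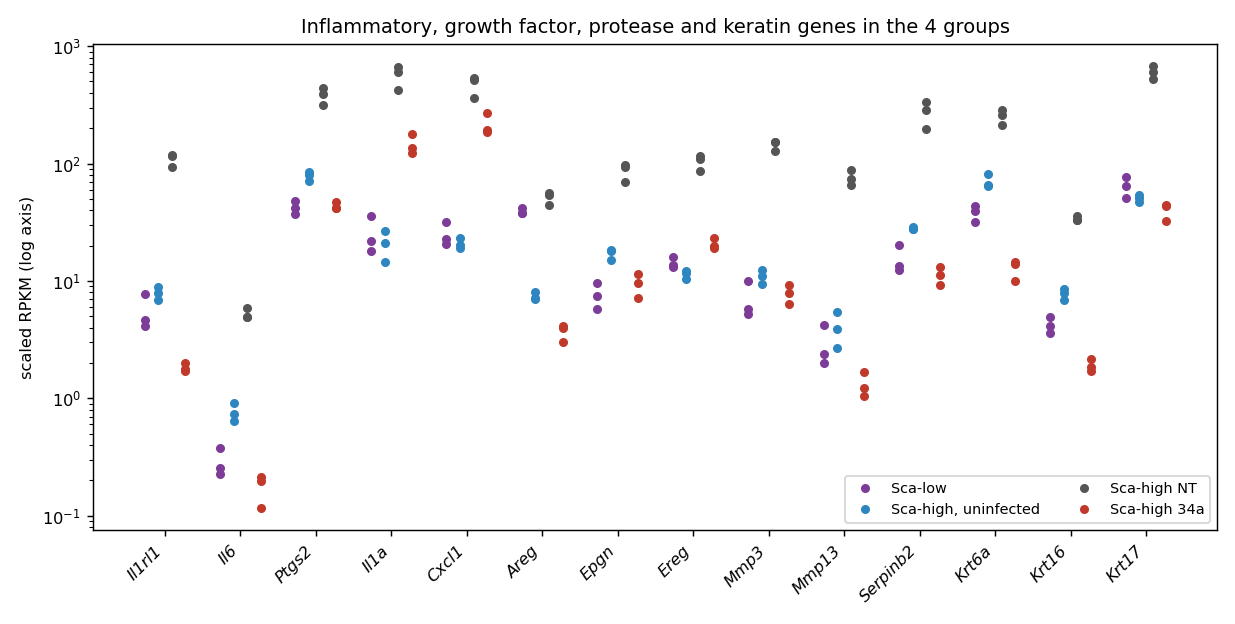
Level of 14 inflammatory, growth factor, protease and keratin genes in each library of the 4 groups, as scaled RPKM on a log axis (Sca-low purple, uninfected Sca-high blue, Sca-high NT grey, Sca-high 34a red). Sca-high NT cells have the highest group mean for all 14 genes, and the Sca-low mean comes nearest to theirs for *Areg* (39.1 against 51.5).

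Of 28 tested collagens and other matrix genes 12 fell and 5 rose (median −0.31). *Col5a2* was at 28.4, 31.8 and 31.3 RPKM in Sca-high NT and 104, 104 and 88.1 in Sca-high 34a cells, and *Col4a5* of the basement membrane rose from 1.54 ± 0.248 to 7.57 ± 0.487 (SD, n = 3). The crosslinking enzymes moved in opposite directions, as *Lox* fell from 3.23 ± 0.764 to 0.585 ± 0.118 and *Loxl4* rose from 1.29 ± 0.179 to 5.99 ± 0.240. Fibronectin (*Fn1*) was at 10.8, 13.5 and 10.1 against 3.41, 3.42 and 5.29, and the proteoglycan versican (*Vcan*) at 3.33 ± 0.0647 against 0.515 ± 0.0484. Of 20 integrins and laminins 7 fell and none rose (median −0.40). Laminins anchor basal cells to the basement membrane. *Lama3* was at 27.6, 17.7 and 22.9 against 7.52, 7.24 and 7.86, and *Lamb3* at 91.3, 74.7 and 79.0 against 37.0, 34.2 and 36.9. The laminin receptor subunit *Itgb4* fell from 23.4 ± 2.53 to 8.99 ± 3.44, and *Itga6* from 26.6 ± 2.28 to 18.5 ± 1.33, a fall not called without library 7 or 11 (−0.47 and −0.45).

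Keratins of basal and activated epidermal-type cells fell, and few luminal genes, most of them low in both groups, rose. Of 13 tested basal and myoepithelial genes 10 fell and 1, *Myl9*, rose (median −1.52), and that rise was not called without library 11 (0.49). *Krt17* was at 676, 526 and 607 RPKM in Sca-high NT and 43.7, 44.4 and 32.3 in Sca-high 34a cells, *Krt6a* at 285, 214 and 257 against 13.9, 14.4 and 10.03, and *Krt16* at 35.8, 33.2 and 33.0 against 2.17, 1.84 and 1.71. These are keratins of stressed or wounded epithelium, and uninfected Sca-high cells were at 50.9, 70.4 and 7.77. The keratins of the resting basal layer fell less, *Krt14* from 941 ± 41.2 to 287 ± 49.0 and *Krt5* from 495 ± 69.9 to 179 ± 67.3 (SD, n = 3). *Trp63*, the transcription factor of basal epithelium, was at 15.3, 15.9 and 15.4 against 6.84, 6.34 and 7.70, and *Acta2*, smooth muscle actin of myoepithelial cells, at 16.3, 20.4 and 17.1 against 4.96, 4.62 and 4.22. The summed level of all 17 basal genes was 2277 to 2577 in the uninduced libraries and 523 to 574 in the induced ones. It was 1439 to 1742 in uninfected Sca-high cells and 415 to 530 in Sca-low cells. The sum was led by *Krt14*, *Krt5* and *Krt17* and does not stand for each gene. In Sca-low cells *Krt5* and *Acta2* averaged 31.4 and 2.38, below the induced means, and *Krt14* and *Krt17* 328 and 64.3, above them.

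Of 22 tested luminal and simple epithelial genes 2 rose and 3 fell (median −0.09). Only 8 of the 40 genes on the list averaged 1 RPKM or more over the 6 libraries of the 2 groups. The tested genes *Cldn1*, *Ovol2*, *Marveld2* and *Marveld3* were under 0.1 RPKM in all 6. For genes this low the lack of a call says little. The sum of the 40 listed genes was 74.1 to 78.7 RPKM in Sca-high NT and 52.2 to 53.5 in Sca-high 34a cells, against 1512 to 1580 in Sca-low cells. In the Sca-high NT and Sca-high 34a libraries the sum was led by *Cd24a*, at a mean of 40.2, with *Spint2* next at 7.72. The sum thus mostly follows *Cd24a*, given below, and not the list as a set. *Krt8*, a keratin of luminal cells, was at 1.45, 1.23 and 1.35 against 1.39, 1.38 and 0.922 and was not called, nor were *Epcam* (0.611 ± 0.143 against 0.538 ± 0.129, SD, n = 3) and E-cadherin (*Cdh1*, 0.164 ± 0.0279 against 0.155 ± 0.0574). *Krt18* rose, from 2.68, 2.62 and 2.27 to 4.44, 3.85 and 3.70, where Sca-low cells had 546. *Cd24a*, the surface protein used to sort epithelial cells, fell from 52.99 ± 4.03 to 27.4 ± 3.72, and the splicing regulator *Esrp2* from 3.90 ± 0.376 to 1.38 ± 0.0149. Of 22 mesenchymal and TGF-β genes 4 rose and 3 fell (median 0.20). Vimentin (*Vim*, 296 ± 11.6 against 311 ± 31.1) and *Zeb1* (2.79 ± 0.163 against 3.16 ± 0.378) were not called. The homeobox gene *Prrx1* was at 13.4, 12.8 and 13.3 against 3.03, 2.94 and 3.73, and *Twist2* fell from 19.9 ± 2.25 to 6.20 ± 0.913, while *Smad3* rose from 2.27 ± 0.116 to 4.43 ± 0.623.

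Cell contacts changed gene by gene. Of 18 tested connexins and desmosomal genes 8 fell and 3 rose (median −0.08). *Gja1*, connexin 43, was at 28.8, 33.0 and 25.4 RPKM in Sca-high NT and 7.02, 5.68 and 11.9 in Sca-high 34a cells. The desmoglein *Dsg3* fell from 2.86 ± 0.240 to 0.565 ± 0.0493 (SD, n = 3), whereas desmoplakin (*Dsp*) was not called, at 39.1 ± 1.95 against 42.7 ± 9.80. Of 22 Ly6 proteins and tetraspanins 6 rose and 5 fell (median −0.19). *Tspan17* rose from 1.35 ± 0.098 to 4.57 ± 0.334 and *Cd53* fell from 2.33 ± 0.156 to 0.454 ± 0.133. Of 14 genes of the YAP and TEAD pathway 5 fell and 2 rose (median −0.37). The matricellular targets *Cyr61* and *Ctgf* fell, from 57.9 ± 6.01 to 30.3 ± 0.325 and from 9.65 ± 0.794 to 5.75 ± 1.05, as did *Tead2* (5.72 ± 0.307 to 1.58 ± 0.0831), while *Wwtr1*, which codes for TAZ, rose from 6.39 ± 0.316 to 11.7 ± 0.471.

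Wnt genes were called in both directions, and no more often than tested genes at large. In this pathway ligands released with the help of *Wls* bind Frizzled receptors, and β-catenin then acts with TCF factors in the nucleus. Of 38 tested genes 7 rose and 6 fell, with a median of 0.06 that lay between 0.02 and 0.13 over the scalings. The share called was 34.2%, against 39.2% of all tested genes. *Fzd5* was at 5.65, 5.25 and 5.20 RPKM in Sca-high NT and 1.39, 1.38 and 1.96 in Sca-high 34a cells, and *Fzd7* at 10.4, 11.8 and 10.9 against 5.97, 5.74 and 6.90. *Wnt7b* was at 1.13, 1.58 and 1.27 against 5.39, 5.56 and 5.05, and *Wls* at 20.5, 20.98 and 21.6 against 42.4, 42.0 and 40.0. *Lgr6*, a receptor that enhances Wnt signals, rose from 0.640 ± 0.0116 to 2.24 ± 0.00867 (SD, n = 3). *Ctnnb1*, the β-catenin gene, was at 100 ± 3.48 against 124 ± 13.9 and the target gene *Axin2* at 1.45 ± 0.0132 against 1.74 ± 0.154, neither called.

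In the Notch pathway 5 of 20 tested genes fell and *Maml2* alone rose, a call lost without library 7, 8, 9 or 12 (0.56 to 0.73). As for the Wnt genes, the share called was below that of all tested genes. Beside *Notch1*, *Notch2* was at 10.5, 11.9 and 9.59 RPKM in Sca-high NT and 3.89, 3.29 and 5.11 in Sca-high 34a cells, and the ligand *Dll1* at 9.29, 8.36 and 8.30 against 5.43, 5.05 and 4.94. The target *Hes1* was at 19.4 ± 0.856 against 15.1 ± 0.539 (SD, n = 3) and the ligand *Jag1* at 13.04 ± 1.23 against 10.3 ± 2.44, neither called, although *Jag1* fell without library 12 (−0.52). Of 17 BMP and activin genes 6 fell and 1 rose (median −0.22). Without library 12, 5 fell and 2 rose, and without library 8, 6 fell and 2 rose. *Inhbb*, an activin subunit, was at 3.93 ± 0.749 against 1.75 ± 0.0442 and *Smad1* at 8.37 ± 0.137 against 4.82 ± 0.218, and the BMP targets *Id1* (−0.22) and *Id2* (0.35) were not called.

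Interferon-stimulated genes and genes of antigen presentation rose, most of them from low levels. Of 26 tested interferon genes 19 rose and 1 fell (median 0.94), and the median was 0.99, 1.00 and 0.93 in libraries 10, 11 and 12. The list holds 35 genes, and the rest were too low to be tested. The risers *Irf7*, *Ifih1* and *Isg15* were under 1 RPKM in Sca-high NT cells and passed the filter only through other groups. The count of rises thus depends in part on the filter. *Irf7*, which amplifies the response, was at 0.427, 0.435 and 0.326 RPKM in Sca-high NT and 2.40, 2.59 and 2.11 in Sca-high 34a cells, *Ifih1*, the RNA sensor MDA5, at 0.214, 0.248 and 0.236 against 1.15, 1.15 and 1.06, and *Isg15* at 0.314, 0.2002 and 0.161 against 0.884, 0.710 and 1.67. *Isg15* in the uninfected Sca-low cells was higher than this, at 3.34, 4.46 and 3.65. *Ifit2* went against the list, from 5.61 ± 0.610 to 1.18 ± 0.0790 (SD, n = 3). Of 12 tested genes of MHC class I presentation 10 rose and none fell (median 1.06). *B2m*, the light chain of MHC class I, was at 56.8, 57.5 and 64.2 against 162, 197 and 138, and the immunoproteasome subunits *Psmb10* and *Psmb8* rose from 10.6 ± 1.09 to 46.5 ± 7.85 and from 1.28 ± 0.115 to 4.78 ± 0.829. *H2-K1*, a heavy chain, rose from 9.53 ± 0.528 to 16.7 ± 1.49, with the limit that the H2 genes share near-identical stretches.

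**Figure D5:**
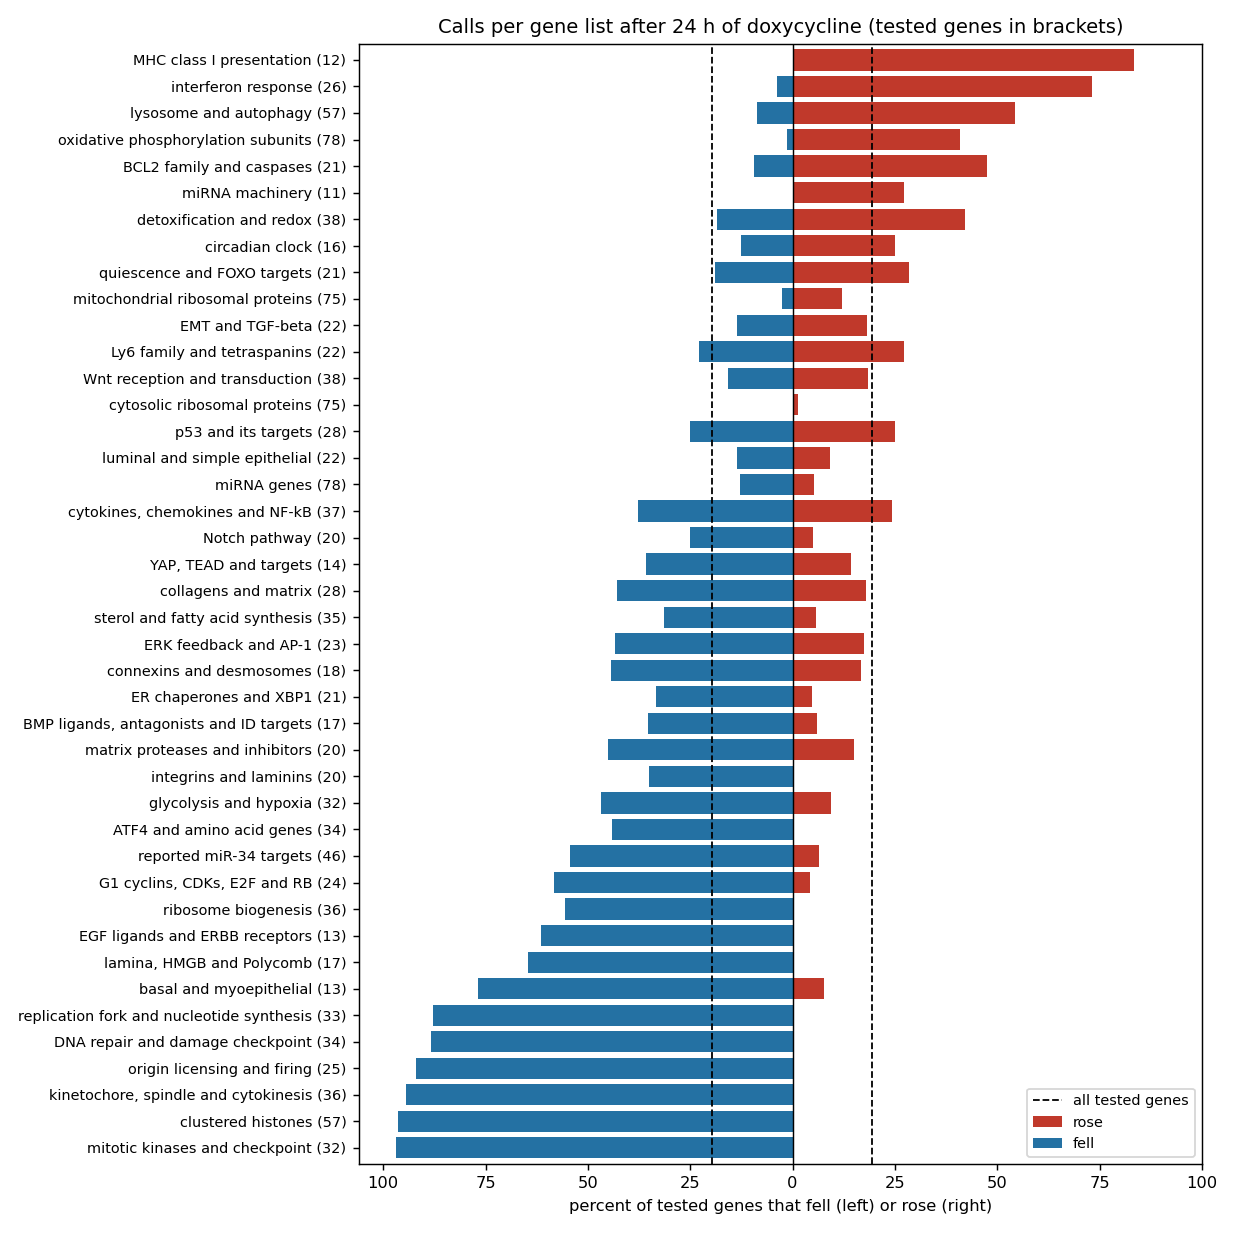
Percent of tested genes that rose (red, right) or fell (blue, left) for each list with at least 10 tested genes, ordered by the difference, with the number tested in brackets and dashed lines at the shares over all tested genes (19.5% and 19.7%). The cell cycle and histone lists reach furthest left, and MHC class I presentation, the interferon response and the lysosome furthest right.

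Argonautes and their partners load and carry miRNAs. Of 11 tested genes of this machinery 3 rose and none fell, although the median was −0.32, and without library 12 as many rose and 3 fell. The risers were the Argonautes *Ago1* and *Ago3* and their partner *Tnrc6b*, at 2.15 ± 0.295, 2.27 ± 0.197 and 1.67 ± 0.124 in Sca-high NT and 4.48 ± 1.31, 4.66 ± 0.389 and 4.25 ± 1.51 in Sca-high 34a cells (SD, n = 3). *Ago2* was at 6.91, 7.53 and 6.43 RPKM against 5.22, 4.20 and 7.66 and was not called. Of 523 miRNA genes listed, 78 passed the filter on low values, and 4 rose and 10 fell. *Mir205*, which is known from basal mammary cells, was at 23.7, 23.6 and 23.6 against 8.35, 7.92 and 7.61, with 2.34 in Sca-low cells, and the host transcript *Mir17hg* of the miR-17 cluster, which MYC and E2F activate, at 4.27 ± 0.316 against 1.32 ± 0.110. *Mir30a* rose on 3, 7 and 4 reads against 25, 18 and 18, so its level is known poorly. Of 16 clock genes 4 rose and 2 fell, with a median between −0.01 and 0.11 over the scalings. *Dbp*, an output gene of the clock, rose from 0.350 ± 0.00323 to 1.05 ± 0.0986 and its relative *Hlf* fell from 2.23 ± 0.441 to 0.445 ± 0.120, while *Arntl*, the partner of *Clock*, was at 3.39 ± 0.153 against 3.44 ± 0.242.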

How the data were processed

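Titles and source names gave the group of each library. RPKM values, 1 for each gene in each library, were deposited by the authors in a table described as raw reads, together with fold changes, p-values and marks of their own comparisons, which were not used. The submitters' processing notes name TopHat2 2.0.6, mm9 and DESeq2 as the tools of the authors, while the counter of reads and its annotation are not stated. The study's count test needs counts, so limma 3.58.1 in R 4.3.3 was used with a trend of the spread on level, on log2(scaled RPKM + 0.1), with 1 mean for each of the 4 groups over the 12 libraries (8 residual and 3.26 prior degrees of freedom). Scaling factors were trimmed means of M values (30% of M and 5% of A values trimmed at each end) against the geometric mean of the libraries. Rows without a symbol (182) were left out.

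The steps of the RPKM values, with the authors' deposited mean of normalized reads over the 6 libraries, gave back whole reads. Of 86545 values under 5000 reads 100% came within 0.1 of a whole read. On these reads limma-voom called 4159 genes.

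The genes and lists were chosen with earlier results of these data known. Named are the marker genes and those the study names, the 12 largest rises and falls at 5 RPKM or more without overlap, the defining members of each list, its 3 called risers and fallers of smallest p, the genes with printed sites, and 5 genes of fold change nearest 0. The uncalled members of the cell cycle and histone lists and *Mcm6* lie outside this rule and were named after their values were seen. Predicted genes and ribosomal pseudogenes were left out of the largest changes. Some genes are not reported here. Lists were described by counts and medians and not tested. RefSeq and GENCODE M21 sequences are of GRCm38, another build than the authors', and only their own coordinates are given. The fit was tested on simulated data. Figures were drawn with matplotlib 3.10.9 in Python 3.11.15.

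Alternatives covered upper quartile scaling, RPKM as deposited, each library as scaling reference, the filter, the pseudocount, the fold threshold, the 6 libraries alone, each library left out, limma-voom, and the shortest 3′ UTR.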

Additional observations from a re-analysis of the deposited data

How the results depend on the processing

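The count of called genes stayed within 1.5 times of 4150 under every alternative run but one. With a log2 fold change above 1 required, 1690 genes were called, 669 rises and 1021 falls. Leaving out each library in turn gave 3938 to 4457 calls, 1958 to 2264 rises and 1958 to 2193 falls, with the highest counts without library 12. Upper quartile scaling gave 2400 rises and 1834 falls, the deposited RPKM 2134 and 2054, a pseudocount of 1 gave 1625 and 1709, and no filter 2506 and 2391 of 18850 genes. With each library as the scaling reference, alternatives chosen after seeing the data, rises were 1855 to 2130 and falls 2029 to 2267. limma-voom on recovered reads gave 2022 and 2137. The median of the genes with an 8-mer moved from −0.21 to −0.14 under upper quartile scaling, which shifts all genes alike, and was −0.26 in the 349 genes with an 8-mer in their shortest UTR. Of 42 lists with 10 or more tested genes, 27 had more falls than rises. Of 274 named genes that were called, 251 were called under every alternative in which they were tested, other than the higher fold threshold, and no named call changed direction. The filter of 1 RPKM in every library of the 6 left 63 of the 274 untested, so 194 were tested and called under each. No paired analysis was possible because the columns of the table carry no replicate number. Depth limits *Mir34a* in the uninduced libraries, at 3 to 8 reads, so its fold change depends on the pseudocount.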
